A study of Mus musculus with 28 samples.

Results

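Regulatory T cells (Tregs) with low surface OX40 from B16 melanomas (tumor OX40minus, 4 mice) were compared with Tregs with high surface OX40 from spleens (spleen OX40plus, 3 mice). Tissue and gate are crossed in this pair: the tumor cells were sorted for little OX40 and the spleen cells for much. A gene can therefore be higher in the tumor cells through a difference with tissue or through a higher level in the OX40minus gate, and this pair is read beside the other diagonal to separate these cases. The pair holds 7 of the 14 samples of the series and 14 of its 28 libraries, chosen by the tissue, gate and mouse in the library names. The remaining 7 samples, tumor OX40plus (4 mice) and spleen OX40minus (3 mice), make the other diagonal of the design, in which tissue and gate point the same way, and share no library with the first.

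All mice were of the Foxp3-GFP strain, in which green fluorescent protein marks cells that express Foxp3. Each received 500000 B16 cells, a transplantable mouse melanoma line, into the skin of the right side, and tumors and spleens were taken 7 to 10 days later. Cells were stained for CD45, CD3, CD4 and OX40, and GFP-positive cells were sorted into high and low OX40. Each mouse and gate is represented by 2 libraries that differed from each other little more than counting noise does, and their mean was counted as 1 sample. The ages and sex of the mice and the treatment beyond the implanted cells are not given in the labels, and mice without tumors were not analysed here. All samples, spleens included, thus come from mice given the melanoma cells. The values are in CPM, read counts scaled to the size of their library, estimated from a deposited table of log2 CPM, and fold changes are on the log2 scale.

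Tregs restrain other lymphocytes and depend on the transcription factor Foxp3. When they are activated through the antigen receptor they display TNF receptor family members such as OX40 (Tnfrsf4), GITR (Tnfrsf18) and 4-1BB (Tnfrsf9), which signal through TRAF adaptors to NF-kB. Activated Tregs also lose the factors of resting lymphocytes, such as Tcf7 and Klf2, gain suppressive molecules such as interleukin 10 and granzyme B, and move from lymphoid organs into tissues and tumors. OX40 on the surface is one readout of this activation, and the place where a Treg resides is known to shape its transcripts as well.

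Estimated counts per sample lay between 26100000 and 28700000 in tumor OX40minus and between 22400000 and 24900000 in spleen OX40plus, so that 3 counts corresponded to 0.106 to 0.126 CPM. All 12 genes of a T cell identity list were detected in both groups, with Cd3e at 1085, 1103, 1095 and 1084 CPM in the tumor samples and 673, 626 and 739 in the spleen samples. The composition of the libraries differed with tissue. Ribosomal protein genes took 1.69% to 1.82% of the counts in tumor OX40minus and 5.82% to 8.1% in spleen OX40plus, and the 13 mitochondrially encoded genes took 0.538% to 0.649% and 1.13% to 1.24%. The tumor and spleen libraries differ in this way whatever the gate, and tissue, library composition and processing of the tissues cannot be told apart.

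Markers of other cell types also differed between the groups. Summed levels of 6 B cell markers were 3.32 to 6.95 CPM in tumor OX40minus and 441 to 663 CPM in spleen OX40plus, and all 6 were called lower in the tumor. Macrophage or monocyte markers summed to 274 to 406 CPM in the tumor samples and 107 to 218 CPM in the spleen samples, with the top of the spleen range in mouse 3 and 8 of 11 called higher in the tumor. Dendritic cell markers summed to 134 to 193 CPM and 14.6 to 19.2 CPM (4 of 6 higher), melanoma markers to 98.6 to 142 and 12.6 to 14.9 CPM (6 of 7 higher), and erythroid markers to 87.2 to 166 and 4.47 to 16 CPM (2 of 3 higher). NK cell markers summed to 45.4 to 66.9 and 21.7 to 39.6 CPM (1 of 7 higher, 2 lower), and CD8 T cell markers to 37.5 to 68.4 and 31.9 to 35.1 CPM (1 of 2 higher). Neutrophil markers summed to 4.11 to 8.98 and 21.3 to 24.1 CPM (3 of 5 tested lower, with Elane at 0 in every spleen OX40plus sample), and fibroblast markers to 24.3 to 41.6 and 5.8 to 6.84 CPM (2 of 6 higher). Endothelial markers summed to 125 to 184 and 137 to 150 CPM (1 of 6 tested higher), plasma cell markers to 0.426 to 3.89 and 3.99 to 8.05 CPM (0 of 2 called), and keratinocyte markers to 1.14 to 4.59 and 1.47 to 2.6 CPM (0 of 1 called, with Krt5 at 0 in every spleen OX40plus sample). The T cell identity genes summed to far more, and in these bulk samples fewer cells of a type and less RNA per cell cannot be told apart.

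**Figure D1:**
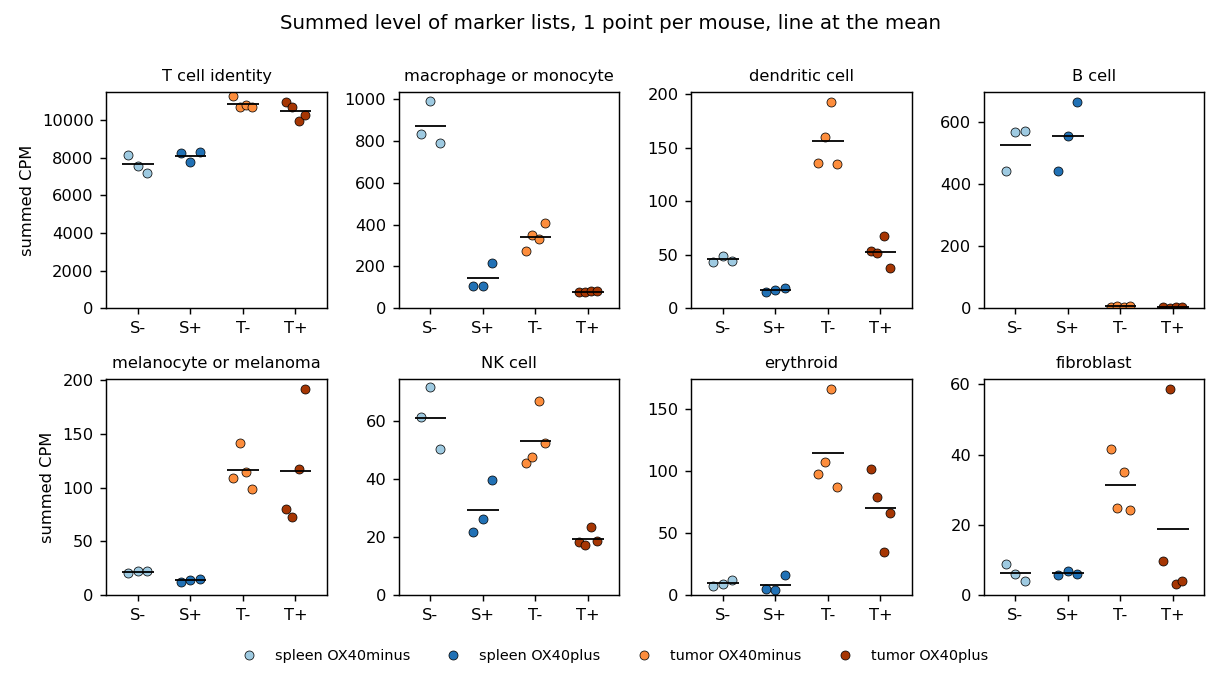
Summed CPM (linear axis from 0) of 8 marker lists in the spleen OX40minus (S-), spleen OX40plus (S+), tumor OX40minus (T-) and tumor OX40plus (T+) samples; points are mice and lines are means. B cell markers were at 441 to 663 CPM in the spleen OX40plus samples and at most 6.95 CPM in the tumor OX40minus samples, and melanoma markers showed the reverse order.

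Of 12519 genes tested, 7227 (57.7%) differed between tumor OX40minus and spleen OX40plus at an adjusted p under 0.05 in limma's linear model. Of these, 3587 (28.7% of the tested genes) were higher and 3640 (29.1%) lower in the tumor cells. The median log2 fold change of all tested genes was -0.05. With a log2 fold change of at least 1 in addition, 1479 were higher and 2237 lower. Values of all 4 tumor samples lay above all 3 spleen samples for 3682 genes (29.4%) and below them for 3868 (30.9%). With so many genes called, a single call says little, and the counts of the gene groups below are read against these shares.

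In the other diagonal, tumor OX40plus against spleen OX40minus, 8398 genes (67.1%) were called, 3941 (31.5%) higher and 4457 (35.6%) lower in the tumor, with a median over all tested genes of -0.14. Called in both diagonals were 5885 genes. By arithmetic, a gene with the same sign in both has an average tissue difference larger than its average gate difference and is said here to follow tissue. A gene with opposite signs has the larger difference with the gate and is said to follow the gate. The same sign was found for 5503 genes (44.0% of the tested genes), 2648 higher and 2855 lower in the tumor. Opposite signs were found for 382 genes (3.05%), of which 143 were higher in OX40plus and 239 higher in OX40minus cells. The same-sign genes were 76.1% of those called in the first diagonal and 65.5% of those called in the second. The opposite-sign genes were 5.29% and 4.55% of the same totals. Across genes, the fold changes of the diagonals had a Pearson r of 0.698 and a Spearman rho of 0.692; genes are not independent, the groups of one tissue come from the same mice, and the library composition above is common to both diagonals.

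**Figure D2:**
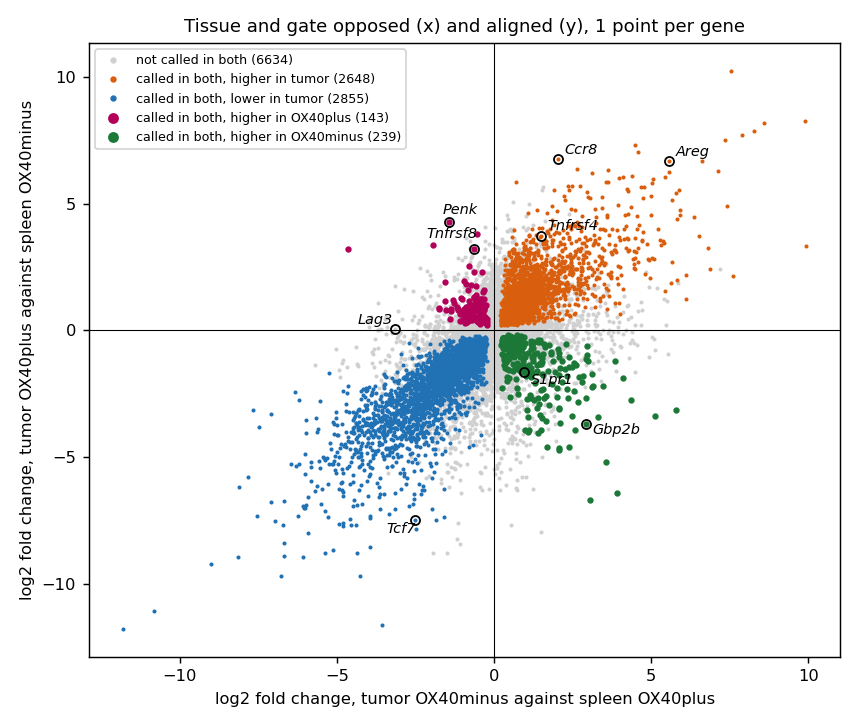
Log2 fold changes of 12519 genes, with tumor OX40minus against spleen OX40plus on the x axis and tumor OX40plus against spleen OX40minus on the y axis, coloured by the calls in both. The upper right (2648 genes) and lower left (2855 genes) hold genes that follow tissue, and the upper left (143 genes) and lower right (239 genes) hold genes that follow the gate.

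The gene used for the gates followed tissue more than gate. Tnfrsf4, which encodes OX40 (chromosome 4, 156013843 to 156016612, genome build GRCm38, as for all coordinates), was at 2159, 1862, 1964 and 1816 CPM in the 4 tumor OX40minus samples and at 714, 588 and 809.5 CPM in the 3 spleen OX40plus samples. Every tumor sample sorted for low OX40 thus carried more Tnfrsf4 transcript than every spleen sample sorted for high OX40. The mean was 2.77-fold higher in the tumor cells (log2 fold change 1.48 ± 0.12 SE, limma adjusted p = 3.56e-08). Within each tissue the transcript was higher in the OX40plus gate, by 0.78 on the log2 scale in tumors (limma adjusted p = 5.14e-05) and by 1.48 in spleens (limma adjusted p = 3.91e-06), a difference that the sort selects for. Whether the gates were set at the same OX40 brightness in tumors and spleens is not given in the labels.

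Other TNF receptors split between tissue and gate. Of 11 tested members of the family, Tnfrsf4 included, 5 were higher, 2 lower and 4 not called in tumor OX40minus cells (median log2 fold change 0.35). Among the higher genes, Ltbr (2.07 and, in the second diagonal, -3.05) and Tnfrsf1a (0.47 and -0.41) followed the gate. Tnfrsf9, encoding the costimulatory receptor 4-1BB (chromosome 4, 150914562 to 150946102), was at 2808, 2338, 2613 and 2532 CPM in the tumor and 499, 399 and 514 CPM in the spleen samples (2.46 ± 0.10 SE, limma adjusted p = 1.66e-11). Tnfrsf18, encoding GITR, was at 1846, 1544, 1609 and 1518 against 631, 520.1 and 744 CPM (1.38, limma adjusted p = 1.93e-07). For both, the tumor and spleen values did not overlap, and the second diagonal was larger (4.78 and 2.51). Tnfrsf8, encoding CD30 (chromosome 4, 145267137 to 145315164), went the other way: it was at 43.3, 49.3, 52.9 and 58.2 CPM in the tumor OX40minus and 74.9, 81.9 and 80.7 CPM in the spleen OX40plus samples (-0.64, limma adjusted p = 0.000536) but at 127 ± 16.1 CPM (SD, n = 4) in tumor OX40plus and 13.6 ± 2.08 CPM (SD, n = 3) in spleen OX40minus. CD30 transcript thus followed the gate. Tnfrsf14, the receptor HVEM, was lower in the tumor in both diagonals (-1.66 and -2.36). Tnfrsf1b and Fas were not analysed here.

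All 14 tested genes of the effector Treg list were higher in tumor OX40minus than in spleen OX40plus cells, with a median of 1.40, and 13 of the 14 were higher in the second diagonal too. Il10 (chromosome 1, 131019845 to 131024974), the suppressive cytokine, was at 301, 318, 275 and 244 CPM in the tumor and 65.4, 47.5 and 50.6 CPM in the spleen samples, a 5.22-fold difference of means (2.39 ± 0.15 SE, limma adjusted p = 1.17e-09). Gzmb, encoding granzyme B (chromosome 14, 56258838 to 56262260), was at 1552, 1541, 1647 and 1603 against 219.7, 301 and 218 CPM (2.70, limma adjusted p = 4.31e-10). Fgl2, which encodes a secreted suppressive fibrinogen-like protein, was at 798, 665, 729 and 657 against 129, 129 and 98.9 CPM (2.59, limma adjusted p = 1.76e-10). In these 3 genes the lowest tumor sample was several times the highest spleen sample.

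Areg, encoding the epidermal growth factor receptor ligand amphiregulin that Tregs use in tissue repair (chromosome 5, 91139599 to 91148432), showed the largest difference of the list. It was at 109, 123, 129 and 96.3 CPM in the tumor and 2.57, 1.68 and 3 CPM in the spleen samples, 47.4-fold apart (5.58 ± 0.30 SE, limma adjusted p = 2.61e-10). Icos, a costimulatory receptor, was at 1615, 1539, 1569 and 1556 against 591, 554 and 559 CPM (1.47, limma adjusted p = 1.52e-09), and Klrg1, a marker of differentiated Tregs, at 339.5, 300.3, 340.4 and 281 against 184, 127 and 161 CPM (1.01, limma adjusted p = 4.01e-06). The smallest difference was that of Batf, an AP-1 family factor of effector Tregs, at 271, 264, 247 and 233 against 194, 165 and 212 CPM (0.42, limma adjusted p = 0.00594), which was not called under the scaling without ribosomal protein and mitochondrial genes (0.26). Il1rl1, the interleukin 33 receptor, was the one gene of the list not called in the second diagonal (1.34 in the first, -0.18 in the second).

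**Figure D3:**
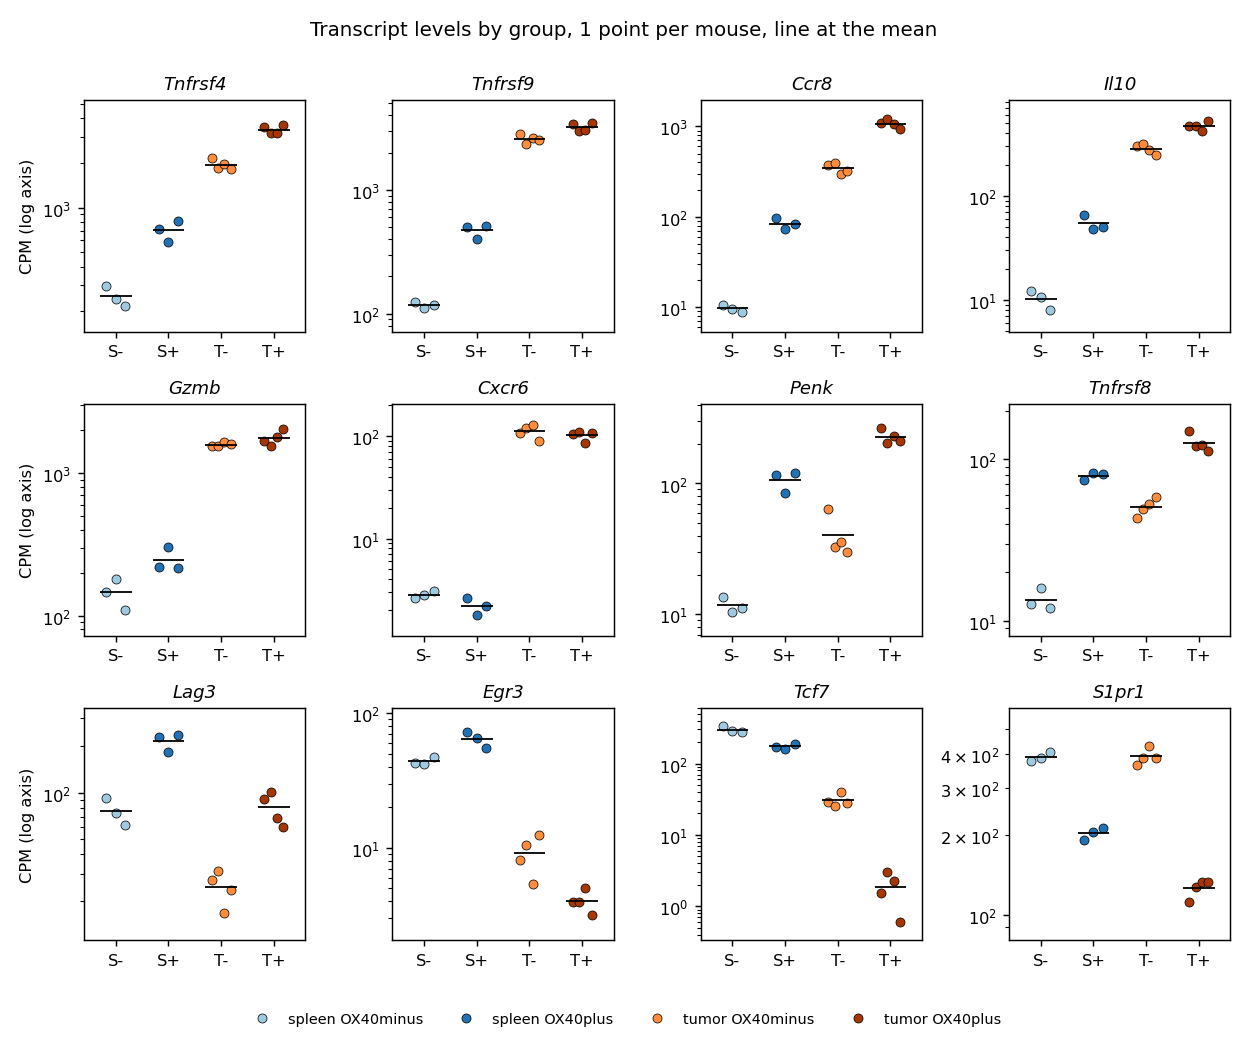
CPM (log axis) of 12 genes in the spleen OX40minus (S-), spleen OX40plus (S+), tumor OX40minus (T-) and tumor OX40plus (T+) samples; points are mice and lines are means. Tnfrsf4, Tnfrsf9, Ccr8, Il10, Gzmb and Cxcr6 were higher in every T- than in every S+ sample, whereas Penk, Tnfrsf8, Lag3, Egr3 and Tcf7 were lower and S1pr1 was higher in T- but lowest in T+.

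Markers of tumor Tregs were more mixed: of 12 tested genes 6 were higher, 2 lower and 4 not called (median 0.40), against 8 higher and 1 lower in the second diagonal (median 3.10). Ccr8, the chemokine receptor that marks many intratumoral Tregs (chromosome 9, 120092114 to 120094906), was at 371, 397, 298 and 323 CPM in the tumor OX40minus and 96.3, 74 and 82.7 CPM in the spleen OX40plus samples (2.04 ± 0.12 SE, limma adjusted p = 7.04e-10). It was at 1067 ± 109 CPM (SD, n = 4) in tumor OX40plus and 9.72 ± 0.805 CPM (SD, n = 3) in spleen OX40minus, so that the second diagonal was far larger (6.77). The gate differences of Ccr8 were 1.62 in tumors (limma adjusted p = 4.66e-08) and 3.11 in spleens (limma adjusted p = 8.47e-10). Tissue and gate thus both went with Ccr8, and tissue outweighed gate.

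Il1r2, the decoy receptor for interleukin 1, had the same sign in both diagonals and so followed tissue, but with a small first diagonal. It was at 56.5, 62.2, 59.5 and 54 CPM in the tumor OX40minus and 39.1, 27.5 and 42.8 CPM in the spleen OX40plus samples (0.69 ± 0.16 SE, limma adjusted p = 0.0014), against 5.83 in the second diagonal. Samsn1, an adaptor protein gene, was at 568, 477, 498 and 465 against 163, 141 and 161 CPM (1.70, limma adjusted p = 2.13e-10). Penk, the gene of proenkephalin, an opioid peptide precursor, (chromosome 4, 4133531 to 4138819), was at 63.4, 33, 35.7 and 29.8 CPM in the tumor OX40minus and 116, 84.3 and 120.5 CPM in the spleen OX40plus samples (-1.45 ± 0.21 SE, limma adjusted p = 2.21e-05). No tumor OX40minus sample reached the lowest spleen OX40plus sample, although tumor OX40plus cells had the highest level of all (228 ± 28.3 CPM, SD, n = 4) and spleen OX40minus the lowest (11.8 ± 1.66 CPM, SD, n = 3). The gate differences of Penk were 2.55 in tumors (limma adjusted p = 1.54e-07) and 3.17 in spleens (limma adjusted p = 4.88e-07).

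The core Treg genes gave no common direction: of 13 tested, 7 were higher, 2 lower and 4 not called (median 0.32). With ribosomal protein and mitochondrial genes left out of the scaling, which lowers the median of all genes from -0.05 to -0.21, 4 rather than 7 were called higher. Foxp3 (chromosome X, 7573644 to 7595245) was at 39.3, 44.2, 34.3 and 49.7 CPM in the tumor and 32.1, 31.8 and 129.7 CPM in the spleen samples and was not called (-0.29 ± 0.36 SE, limma adjusted p = 0.516). Mouse 3 of spleen OX40plus stood apart from the other spleen mice and from every tumor sample, and its removal turned the log2 fold change to 0.38 (limma adjusted p = 0.126). Il2ra, the high-affinity interleukin 2 receptor chain CD25, was at 1003, 884, 993 and 1013 against 849.7, 838 and 663 CPM (0.32, limma adjusted p = 0.014), and was no longer called without the same spleen mouse (0.20). Ctla4 (chromosome 1, 60887000 to 60915832), the inhibitory receptor through which Tregs limit costimulation, was at 3618, 3979, 4010 and 3372 against 869.5, 804 and 849 CPM, 4.45-fold higher in the tumor (2.15 ± 0.09 SE, limma adjusted p = 1.78e-11). Gpr83 and Izumo1r, which encode a receptor and the folate receptor 4 of Tregs, were lower in the tumor in both diagonals. Gpr83 was at 39.9, 18.6, 34.7 and 34.5 against 157, 151 and 161 CPM (-2.35) and Izumo1r at 386, 355, 305 and 326 against 1129, 938 and 1422 CPM (-1.75). Socs2, a feedback inhibitor of cytokine signaling, was higher in the OX40minus cells in both diagonals (1.60 and -0.64).

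Of 12 tested inhibitory receptors 7 were higher, 4 lower and 1 not called (median 0.53). Havcr2, encoding TIM-3, was at 76.1, 91.6, 68.1 and 84.9 CPM in the tumor and 15, 16.3 and 9.67 CPM in the spleen samples (2.58, limma adjusted p = 6.07e-09). Pdcd1, encoding PD-1, was at 176, 186, 159.7 and 170.3 against 120, 88.4 and 129.6 CPM (0.63, limma adjusted p = 0.00106). Lag3 (chromosome 6, 124904361 to 124911705), which encodes a receptor for MHC class II, was lower in the tumor: 27.2, 31.3, 16.7 and 23.5 CPM against 227, 184 and 236 CPM, 8.73-fold apart (-3.15 ± 0.21 SE, limma adjusted p = 3.67e-09). In the second diagonal Lag3 was at 80.1 ± 19 CPM in tumor OX40plus (SD, n = 4) and 76 ± 15.2 CPM in spleen OX40minus (SD, n = 3) and was not called (0.06 ± 0.21 SE, limma adjusted p = 0.804). Btla, an inhibitory receptor of T and B cells, was at 30.1, 18.6, 31.5 and 19.4 against 88.8, 107 and 99.5 CPM (-2.03). The B cell markers were lower in the tumor as well, and their part in this result was not tested. Tigit was not analysed here.

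Genes that respond to the T cell receptor did not move as 1 group. Of 16 tested, 5 were higher and 10 lower in the tumor OX40minus cells (median -0.82), and 13 of the 16 had the same sign in both diagonals. The higher genes included Nr4a1, an orphan nuclear receptor induced by antigen (chromosome 15, 101254269 to 101274795), at 688, 970.5, 901 and 763 CPM in the tumor and 416, 337 and 474 CPM in the spleen samples (1.02 ± 0.16 SE, limma adjusted p = 4.85e-05). Its relative Nr4a2 was at 43.4, 51.7, 36.5 and 38.9 against 10.8, 8.72 and 8.56 CPM (2.18), but the third relative, Nr4a3, was lower in the tumor at 28.5, 30.5, 27.5 and 24.7 against 73.2, 53.2 and 46.6 CPM (-1.03). Cd69, an early activation receptor that retains lymphocytes in tissue, was at 521, 475, 616 and 513 against 65.5, 64.9 and 73.7 CPM (2.96, limma adjusted p = 5.75e-12). Dusp5, a phosphatase that limits ERK, was at 791, 960.5, 840 and 715 against 228, 202 and 262 CPM (1.84).

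The lower genes of the receptor response were transcription factors for the most part. Egr3 (chromosome 14, 70077203 to 70082614), a zinc finger factor induced with NR4A genes, was at 8.09, 10.6, 5.42 and 12.4 CPM in the tumor and 72.1, 65 and 55.5 CPM in the spleen samples, 7.04-fold apart (-2.88 ± 0.24 SE, limma adjusted p = 5.67e-08). Egr2 was at 23.3, 21.9, 17.6 and 14.7 against 54.3, 46 and 56.4 CPM (-1.45). Irf4, which drives effector Treg differentiation, was at 52.3, 79.5, 55.6 and 69.8 against 133, 137 and 128 CPM (-1.07, limma adjusted p = 3.04e-05). Tumor Tregs with low OX40 thus had more Nr4a1, Nr4a2 and Cd69 and less Egr2, Egr3, Nr4a3 and Irf4 transcript than spleen Tregs with high OX40. Myc (-0.38 and 0.53) was the one gene of the list that followed the gate.

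Genes of NF-kB, the pathway to which OX40 signals, went in both directions. Of 19 tested genes 11 were higher and 6 lower (median 0.46), and none had opposite signs in the diagonals. Tnfaip3, encoding the ubiquitin-editing enzyme A20 (chromosome 10, 19000910 to 19015657), was at 1344, 1731, 1740 and 1265 CPM in the tumor and 159.8, 137 and 135 CPM in the spleen samples, 10.6-fold apart (3.39 ± 0.15 SE, limma adjusted p = 4.39e-11). Nfkbia, encoding the cytoplasmic inhibitor of NF-kB (chromosome 12, 55489410 to 55492647), was at 1836, 1885, 2004 and 1841 against 464, 396 and 508 CPM (2.06 ± 0.09 SE, limma adjusted p = 3.37e-11). Tnip1, which encodes a binding partner of A20 that also inhibits NF-kB, was lower in the tumor at 219, 174, 192 and 205 against 326, 296 and 352 CPM (-0.72, limma adjusted p = 5.97e-06). The inhibitors thus did not share a direction. The TRAF adaptor genes split as well. Traf1 was at 725, 724, 747 and 739.9 against 324, 316 and 376 CPM (1.12), and Traf2 was slightly higher in the tumor (0.31). Traf3 (-0.99) and Traf5 (-0.42) were lower, also in the second diagonal (-0.55 and -0.62). The DNA-binding subunits differed among themselves. Nfkb1 (chromosome 3, 135584655 to 135691547) was lower in the tumor at 118, 138, 134 and 147 against 530.4, 496 and 471 CPM (-1.90 ± 0.11 SE, limma adjusted p = 4.45e-10), as was Rel at 47.5, 76.1, 62.9 and 64.7 against 127, 141 and 107 CPM (limma adjusted p = 1.82e-05). Rela, the subunit p65, was higher at 279.6, 261, 274 and 255 against 192, 174 and 219 CPM (0.46, limma adjusted p = 0.000333), and Relb was not called (0.13, limma adjusted p = 0.41). Nfkb1 and Rel are also expressed by B cells, whose markers were lower in the tumor samples, and their part in this result was not tested.

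A motif for NF-kB (GGGA, any 4 bases, then CC, on either strand) was looked for in RefSeq promoters of build GRCm38.p6, from 250 bases before to 50 after each start. It was found for 9 of the 16 NF-kB pathway genes with a promoter in the table (56.2%), for 30.3% of all 10044 tested genes with one, and in 26.2% of their 12943 promoters. The 9 held genes that were higher in the tumor, such as Rela and Tnfaip3, and genes that were lower, Rel, Tnip1 and Traf5. The Nfkbia promoter is shown because the gene carries 2 such matches and had more transcript in every tumor OX40minus than in every spleen OX40plus sample. The 250 bases before its start (chr12:55492648-55492897, minus strand) are printed 5′ to 3′ with the matches in capitals.
Nfkbia: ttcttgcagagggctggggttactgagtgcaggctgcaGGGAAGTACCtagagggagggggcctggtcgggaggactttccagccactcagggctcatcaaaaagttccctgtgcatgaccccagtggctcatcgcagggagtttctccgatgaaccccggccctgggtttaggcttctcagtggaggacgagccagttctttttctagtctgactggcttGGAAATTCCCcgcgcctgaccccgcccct
The matches are a description of the letters, not of binding.

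Genes of immediate early stress, which the digestion of tissue can induce, were also higher: 8 of 12 tested were higher and none lower (median 1.20). Fos was at 1128, 1207, 1382 and 1378 CPM in the tumor OX40minus and 158, 114 and 147 CPM in the spleen OX40plus samples (3.20, limma adjusted p = 4.34e-12), Dusp1 at 1622, 1817, 1972 and 1747 against 281, 198 and 293 CPM (2.82) and Atf3 at 35.5, 50.3, 68.1 and 41.3 against 0.831, 1.01 and 1.1 CPM (5.63). Nr4a1, Cd69, Nfkbia and Tnfaip3, described above, moved in the same direction as these genes, and the part of tissue digestion was not tested.

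Resting T cell genes were lower less uniformly than in the second diagonal. Of 18 tested, 8 were lower, 5 higher and 5 not called (median -0.31), against 16 lower and none higher in the second diagonal (median -3.27). Tcf7, encoding the factor TCF1 of naive and memory T cells (chromosome 11, 52252371 to 52283014), was at 28.8, 25.2, 39.9 and 28.1 CPM in the tumor OX40minus and 169, 160 and 191 CPM in the spleen OX40plus samples (-2.52 ± 0.36 SE, limma adjusted p = 1.85e-05). It was at 1.88 ± 1.04 CPM in tumor OX40plus (SD, n = 4) and 298 ± 33.7 CPM in spleen OX40minus (SD, n = 3), and its gate difference was -4.19 in tumors (limma adjusted p = 2.26e-07) and -0.78 in spleens (limma adjusted p = 0.321). Id3, an inhibitor of E proteins, was at 5.67, 5.02, 12.8 and 9.87 against 71.8, 61.7 and 91.6 CPM (-3.25), Actn1, an actin-binding protein of naive T cells, at 4.58, 6.5, 5.32 and 7.17 against 72.6, 73 and 70.1 CPM (-3.62), and Il6ra, the interleukin 6 receptor, at 53.2, 60.8, 59.8 and 56.3 against 183, 181 and 156 CPM (-1.59).

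Klf2, S1pr1 and Ccr7, genes of lymphocyte recirculation, gave different patterns. Klf2, which keeps T cells in circulation (chromosome 8, 72319033 to 72321656), was at 242, 282, 315 and 304 CPM in the tumor and 339, 338 and 477 CPM in the spleen samples, a small difference without overlap (-0.42 ± 0.16 SE, limma adjusted p = 0.0356). The call was lost without spleen OX40plus mouse 3 (-0.25), without tumor OX40minus mouse 1 (-0.34) and without tumor OX40minus mouse 2 (-0.42). Klf2 was lower in the tumor in the second diagonal too, by far more (-4.14), as was Tcf7. Its target S1pr1, the receptor for exit from lymphoid organs (chromosome 3, 115710433 to 115715072), was higher in the tumor OX40minus cells at 366, 389, 430 and 389 against 191, 204 and 212 CPM (0.96 ± 0.08 SE, limma adjusted p = 7.56e-08) but lower in tumor OX40plus (126 ± 10 CPM, SD, n = 4) than in spleen OX40minus (391 ± 16.4 CPM, SD, n = 3). S1pr1 thus followed the gate. Ccr7, the lymph node homing receptor, was at 155, 184, 170.4 and 156 against 102, 107 and 122 CPM (0.60, limma adjusted p = 0.00126) and was not called in the second diagonal (-0.22).

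Of 15 tested chemokine receptors 11 were higher and 3 lower (median 1.92), against 9 higher and 6 lower in the second diagonal (median 0.66). In both diagonals 9 were higher and 3 lower, and 2, Ccr4 (0.42 and -2.01) and Ccr10 (1.87 and -1.21), followed the gate. Cxcr6, the receptor for the membrane chemokine CXCL16 (chromosome 9, 123806475 to 123811760), was at 106, 121, 129 and 89.3 CPM in the tumor and 2.65, 1.81 and 2.17 CPM in the spleen samples, 50.4-fold apart (5.65 ± 0.17 SE, limma adjusted p = 6.55e-13), and its second diagonal was about as large (5.16). Ccr2 was at 1741, 1546, 1690 and 1652 against 72.5, 89.8 and 52 CPM (4.57) and Ccr3 at 184, 157, 174 and 185 against 12.2, 10.8 and 10.7 CPM (3.96). Both receive inflammatory chemokines, and their tumor OX40minus values did not overlap with the spleen OX40plus values. Their second diagonals were smaller (2.70 for Ccr2 and 1.09 for Ccr3). Ccr2 and Ccr1 (4.02) are also receptors of monocytes, whose markers were higher in the tumor OX40minus samples, and their part in this result was not tested. Cxcr5, the receptor for B cell follicles, was lower (-2.70 and -3.77), as were the B cell markers.

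Of 11 tested integrins 8 were higher and 2 lower (median 0.91), against 3 higher and 6 lower in the second diagonal (median -0.55). Itga4, the alpha chain of VLA-4, was at 76.6, 89.2, 82.1 and 81.5 CPM in the tumor and 375, 434 and 316 CPM in the spleen samples (-2.18, limma adjusted p = 4.66e-08) and was lower in the second diagonal too (-3.98). Itgb7, a beta chain that pairs with it, was at 2272, 2368, 2403 and 2221 against 1173, 1154 and 1358 CPM (0.92). Itgb1 and Itgb3 followed the gate and were higher in the OX40minus cells of both diagonals: Itgb1 differed by 0.80 in the first and -0.93 in the second, and Itgb3 by 1.59 and -0.55.

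Lineage and differentiation factors were mostly higher, 13 of 15 with 2 lower (median 1.82). Id2, an inhibitor of E proteins in effector lymphocytes (chromosome 12, 25093799 to 25097140), was at 506, 515, 550.2 and 475 CPM in the tumor and 59.4, 46.9 and 56.5 CPM in the spleen samples, 9.43-fold apart (3.24 ± 0.12 SE, limma adjusted p = 3.68e-12). Bhlhe40, a factor of tissue lymphocytes, was at 380.2, 479, 564 and 386 against 61.4, 43.3 and 62.1 CPM (3.02), Hif1a, the oxygen-regulated factor, at 1716, 1568, 1738 and 1539 against 372, 382 and 319 CPM (2.20), and Nfil3 at 287, 334, 325 and 278 against 62.2, 48.5 and 66.5 CPM (2.38). Id2 and Id3 thus lay in opposite order between the groups. The lower factors were Irf4 and Bcl6 (-1.37), the latter a factor of follicular T cells and germinal center B cells.

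Among 11 tested cytokines 5 were higher, 3 lower and 3 not called (median 0.45). Besides Il10 and Areg, the higher ones were Il17a, at 3.09, 2.98, 4.42 and 2.73 CPM in the tumor and 0.0396, 0 and 0.0394 CPM in the spleen samples, Ifng (2.06) and Csf2 (2.68). Csf2 was no longer called without spleen OX40plus mouse 1 (2.68) or 2 (2.44) or tumor OX40minus mouse 1 (2.13). The spleen values of Il17a lay below 3 counts. Tgfb1, the cytokine that induces Foxp3, was lower in the tumor at 154, 149, 158 and 161 against 327, 312 and 356 CPM (-1.09, limma adjusted p = 4.9e-07), and its second diagonal was the same size (-1.10). Of 8 tested cytotoxic granule genes 6 were higher and none lower (median 2.30), with Nkg7 at 433, 409.7, 321 and 337 against 27.5, 29.5 and 39.2 CPM (3.55, limma adjusted p = 1.78e-11), Prf1, encoding perforin, at 71.9, 85.7, 73.2 and 61.9 against 9.18, 10.8 and 8.71 CPM (2.93), and Fasl at 21.6, 21.4, 18.3 and 12.8 against 3.44, 2.94 and 3.98 CPM (2.41). Gzma, granzyme A, was not called (-0.87, limma adjusted p = 0.198). The summed NK cell and CD8 T cell markers were higher in the tumor samples as well, at most 66.9 and 68.4 CPM. Of the 7 NK cell markers, however, only Tyrobp was higher in the tumor (4.25-fold). All other NK cell markers had higher means in spleen OX40plus, 2 of them called, and the list median was -1.29. The part of NK cells and CD8 T cells in the granule genes was not tested.

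**Figure D4:**
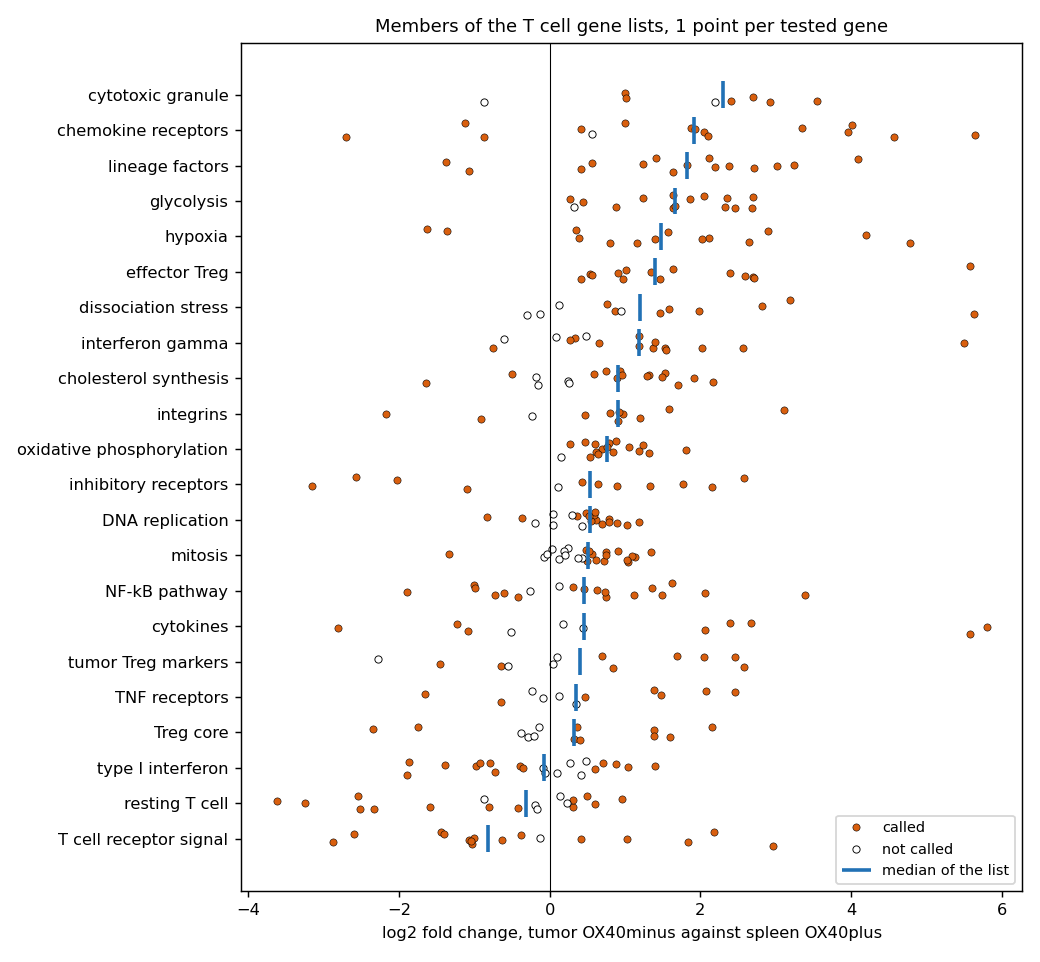
Log2 fold changes of tumor OX40minus against spleen OX40plus for the tested members of 22 gene lists, ordered by the median of the list (blue line); filled points were called at an adjusted p under 0.05. Effector Treg, glycolysis and oxidative phosphorylation genes lie to the right of 0 and T cell receptor signal genes lie on both sides.

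Cell cycle genes were higher in tumor OX40minus than in spleen OX40plus cells, but by little. Of 24 tested mitosis genes 14 were higher, 1 lower and 9 not called (median 0.51), and of 20 DNA replication genes 13 were higher, 2 lower and 5 not called (median 0.53). In the second diagonal 23 and 19 of them were higher (both medians 2.52). Ccnb1, the mitotic cyclin B1, was at 109.8, 132, 118 and 109.9 CPM in the tumor and 44.1, 60.3 and 36.9 CPM in the spleen samples (1.34, limma adjusted p = 5.18e-06), and Rrm2, a subunit of ribonucleotide reductase, at 254, 274, 272 and 279.9 against 112, 153 and 96.4 CPM (1.19, limma adjusted p = 2.56e-06). Cenpa was at 314, 328, 257 and 274 against 152, 174 and 142 CPM (0.91) and Mcm4 at 262, 278, 264 and 253 against 144, 158 and 126 CPM (0.89). Mki67, the proliferation marker (chromosome 7, 135689784 to 135716361), went the other way, at 148, 187, 125 and 130.2 CPM in the tumor and 378, 559 and 236 CPM in the spleen samples (-1.33 ± 0.22 SE, limma adjusted p = 7.41e-05). It was the 1 mitosis gene called lower, and the lower replication genes were the polymerase genes Pole (-0.84) and Pold1 (-0.36). Pole was not called without spleen OX40plus mouse 2 (-0.64), nor Pold1 without tumor OX40minus mouse 3 (-0.26). Pcna and Mcm7 were not analysed here.

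Most glycolysis and hypoxia genes had the same sign in both diagonals. Of 15 tested glycolysis genes 14 were higher and none lower (median 1.66), and 13 were higher in both diagonals. Of 14 hypoxia genes 12 were higher and 2, Egln1 (-1.63) and Ddit4 (-1.36), lower (median 1.48), against 8 higher and 4 lower in the second diagonal (median 1.14). Of the 14, 8 were higher and 2 lower in both diagonals, and 2, Kdm3a (0.35 and -0.38) and Pdk1 (0.39 and -0.62), followed the gate. Neither was called in the first diagonal under the scaling without ribosomal protein and mitochondrial genes (0.19 and 0.23), nor Pdk1 without spleen OX40plus mouse 1 (0.36). Bnip3, a mitophagy receptor induced by low oxygen (chromosome 7, 138890836 to 138909519), was at 143, 165, 154 and 144 CPM in the tumor and 6.1, 5.21 and 5.17 CPM in the spleen samples, 27.6-fold apart (4.78 ± 0.12 SE, limma adjusted p = 1.56e-13). Hilpda, a lipid droplet protein, was at 178, 214, 218 and 155 against 10.6, 10.2 and 10.1 CPM (4.20 ± 0.12 SE, limma adjusted p = 3.43e-13) and differed by about the same in the second diagonal (4.13). For both genes the lowest tumor value was more than 10 times the highest spleen value.

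Ldha, encoding the lactate dehydrogenase A chain (chromosome 7, 46841475 to 46855627), was at 3297, 3357, 3234 and 2968 CPM in the tumor and 575, 573 and 600.5 CPM in the spleen samples (2.46 ± 0.10 SE, limma adjusted p = 1.25e-11). Tpi1, triosephosphate isomerase, was at 855, 938, 918 and 824 against 133, 129.9 and 146 CPM (2.70), Eno1, an enolase, at 2685, 2782, 2686 and 2577 against 486, 509 and 591 CPM (2.35), and Slc2a1, the glucose transporter GLUT1, at 265, 296, 269 and 259.8 against 53.5, 53.2 and 56.9 CPM (2.32). Hk2, a hexokinase, was the glycolysis gene that was not called (0.33). P4ha1, a collagen prolyl hydroxylase, was higher in the first diagonal (1.40) and not called in the second (-0.20).

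The core letters ACGTG, to which hypoxia-inducible factors bind, were looked for on either strand in the same promoters, a motif added after the expression values were seen. They were present for 10 of the 12 hypoxia genes with a promoter (83.3%) and 9 of the 14 glycolysis genes (64.3%), against 28.7% of all tested genes with a promoter and 24.5% of their promoters. The 10 hypoxia genes included Egln1 and Ddit4, which were lower in the tumor, and were otherwise genes called higher. The E-box CACGTG contains these letters and was present for 11.3% of the genes. Among the same-sign genes the share was 33.3% for those higher and 26.9% for those lower in the tumor, and among the opposite-sign genes it was 34.7% for those higher in OX40plus and 19.2% for those higher in OX40minus cells. The 250 bases before the starts of Ldha (chr7:46845554-46845803, plus strand) and Bnip3 (chr7:138909507-138909756, minus strand) are shown 5′ to 3′ because both genes were among the highest of their lists in the tumor, with the matches in capitals; Ldha has them in 3 places and Bnip3 in 1.
Ldha: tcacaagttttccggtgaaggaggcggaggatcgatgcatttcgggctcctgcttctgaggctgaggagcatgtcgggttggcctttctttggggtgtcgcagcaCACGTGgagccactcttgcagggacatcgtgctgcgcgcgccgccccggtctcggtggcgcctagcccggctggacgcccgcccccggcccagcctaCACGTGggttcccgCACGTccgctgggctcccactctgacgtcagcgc
Bnip3: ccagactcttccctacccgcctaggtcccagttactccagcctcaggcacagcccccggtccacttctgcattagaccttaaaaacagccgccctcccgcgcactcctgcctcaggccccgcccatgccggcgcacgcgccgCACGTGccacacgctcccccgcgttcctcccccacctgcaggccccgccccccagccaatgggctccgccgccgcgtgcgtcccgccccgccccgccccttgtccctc
A second Ldha start in the table has no such letters in its window.

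**Figure D5:**
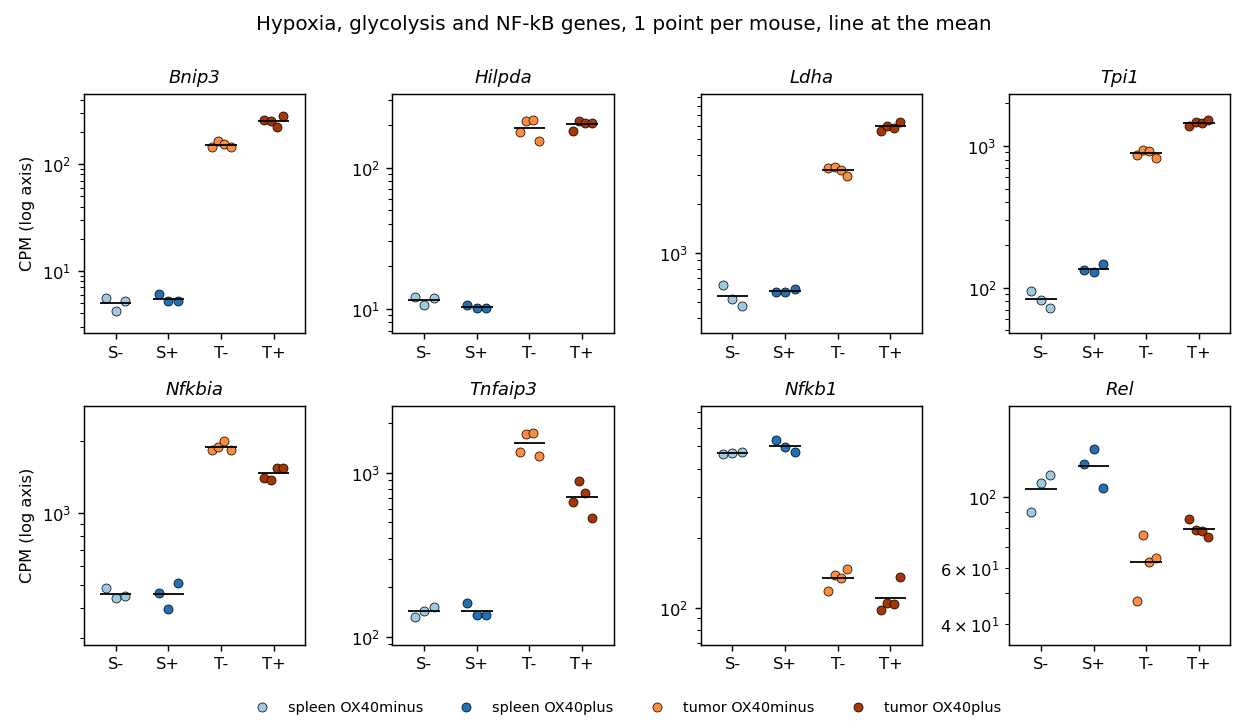
CPM (log axis) of 4 hypoxia or glycolysis genes and 4 NF-kB genes in the spleen OX40minus (S-), spleen OX40plus (S+), tumor OX40minus (T-) and tumor OX40plus (T+) samples; points are mice and lines are means. Bnip3, Hilpda, Ldha, Tpi1, Nfkbia and Tnfaip3 were higher and Nfkb1 and Rel lower in every tumor sample than in every spleen sample of either gate.

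Of 17 tested oxidative phosphorylation genes 16 were higher and none lower (median 0.76), among them Uqcrb at 138, 138, 148 and 139 against 38.6, 34.6 and 48.9 CPM (1.81) and Sdhb at 313, 327, 319 and 285 against 128, 121 and 148 CPM (1.24). These nuclear genes moved against the mitochondrially encoded genes, whose share of the counts was lower in the tumor samples. Of 18 cholesterol synthesis genes 12 were higher and 2 lower (median 0.91), with Idi1 at 128, 119, 148 and 123 against 28, 28.7 and 29.1 CPM (2.17) and Sqle, squalene epoxidase, at 77.6, 80.2, 90.2 and 72.6 against 20.6, 21.2 and 21.6 CPM (1.92). Mvd (-0.50) was among the lower ones.

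Of 16 tested interferon gamma genes 12 were higher and 1 lower (median 1.18), against 6 higher and 5 lower in the second diagonal (median -0.04), and 2 followed the gate. The higher genes included the GTPase gene Igtp at 1504, 1408, 1722 and 1509 CPM in the tumor and 384, 379.7 and 366 CPM in the spleen samples (2.02, limma adjusted p = 5.92e-10) and Cd274, encoding PD-L1, at 260.1, 284, 264 and 261 against 108, 110.3 and 93.6 CPM (1.37, limma adjusted p = 4.8e-08). Cd274 was not called in the second diagonal (-0.16). Of 20 type I interferon genes 5 were higher and 9 lower (median -0.07), against 2 higher and 17 lower in the second diagonal (median -1.47). Of these, 2 followed the gate and were higher in OX40minus cells, among them Ifit1. Ifit1 was at 197, 164, 249 and 243 against 78.2, 81.2 and 79 CPM (1.40 and, in the second diagonal, -0.48). The RNA sensor gene Ifih1 was lower in the tumor in both diagonals, at 50.6, 36.8, 48.6 and 34.7 against 83.8, 91.9 and 66 CPM in the first (-0.92 and -1.59).

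Of the 143 genes that followed the gate and were higher in OX40plus cells, Penk had the largest difference in its weaker diagonal among the genes with at least 10 CPM in their highest group; genes at lower levels, such as Slc30a2, differed by more. The next 7 genes by the same rule were Recql4, Nefh, Diaph3, Pif1, Smyd2, Polq and Fam81a, of which Recql4, Pif1 and Polq act in DNA replication and repair and Diaph3 in cytokinesis. Recql4, a DNA helicase gene, was at 9.31, 6.39, 4.39 and 7.34 CPM in the tumor OX40minus and 16.4, 17.8 and 14.8 CPM in the spleen OX40plus samples (-1.29 and, in the second diagonal, 1.20). Polq, encoding DNA polymerase theta, was at 4.78, 5.09, 3.76 and 3.29 against 14.7, 21.7 and 8.92 CPM (-1.76 and 0.90, the latter 0.70 and no longer called without spleen OX40minus mouse 1), and Diaph3 at 11.8, 9.15, 12.4 and 11.8 against 22.1, 30.7 and 18.9 CPM (-1.06 and 1.26). Smyd2, a lysine methyltransferase gene, was at 10.1, 11.2, 9.09 and 10.3 against 21.3, 23.5 and 25 CPM (-1.19 and 0.91).

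Of the 239 genes that followed the gate and were higher in OX40minus cells, the rule named Gbp2b, Fcgr3, Ltbr, App, Cd300a, Fcer1g and Tbxas1 among others. Gbp2b, an interferon-induced GTPase gene (chromosome 3, 142594847 to 142619179), was at 95.6, 47.3, 66.4 and 77 CPM in the tumor OX40minus and 9.22, 11.3 and 7.31 CPM in the spleen OX40plus samples (2.92, limma adjusted p = 1.67e-07), and at 3.9 ± 1.19 CPM in tumor OX40plus (SD, n = 4) and 49.4 ± 11.1 CPM in spleen OX40minus (SD, n = 3). Fcer1g, the common gamma chain of Fc receptors, was at 41.1, 45.6, 65.7 and 47.9 against 8.86, 7.11 and 15.5 CPM (2.31 and -1.79), and Fcgr3, an Fc receptor for IgG, at 12.3, 13.8, 21 and 21.9 against 2.14, 3.24 and 5.39 CPM (2.31 and -2.32). Fcgr3, Fcer1g, Cd300a and Tbxas1 are genes of myeloid cells. Macrophage or monocyte markers had the same order, with 8 of 11 higher in the OX40minus cells of both diagonals and sums of 75.2 to 81.4 CPM in tumor OX40plus and 789 to 990 CPM in spleen OX40minus, and their part in this group was not tested. The AP-1 motif TGANTCA was present for 11.5% of the OX40minus genes with a promoter (182 genes) and for 6.52% of all tested genes with one, and in 5.42% of all promoters. Its share was 5.93% in the genes higher in OX40plus, and 6.39% and 5.67% in the same-sign genes higher and lower in the tumor. Other motifs were also looked for in the OX40minus genes: KLF (CACCC, 73.6% against 66.8% of all), TCF (CTTTGAT, 2.2% against 3.09%) and NF-kB (31.3% against 30.3%). The shares were not tested.

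The genes with the largest differences were taken without the markers of other cell types, antigen receptor segments and unnamed gene models. The 12 highest were Ccl8, Tsix, Hist1h2ap, Mgl2, Tgfa, Dab2, Clec10a, Serpinh1, Ermn, Cxcr6, Atf3 and Areg. Ccl8, a monocyte chemoattractant gene, was at 32.9, 59, 19.6 and 63 CPM in the tumor samples and listed at 0 in all 3 spleen OX40plus samples, at least 346-fold higher against a floor of 3 counts per sample. Mgl2 and Clec10a, lectins of macrophages and dendritic cells, were at 25.9, 29.4, 36.6 and 22.5 against 0.0396, 0.126 and 0.376 CPM and at 23.7, 32.6, 34.8 and 29.2 against 0.317, 0.546 and 0.843 CPM, and Cd209a, a dendritic cell marker, at 84.3, 102, 126 and 75.6 against 0.119, 0.042 and 0.0789 CPM. Dendritic cell and macrophage markers were higher in the same samples, and their part was not tested. Hist1h2ap, a replication-dependent histone gene, was at 652, 864, 613 and 569.8 against 3.59, 2.73 and 4.52 CPM, and Malat1, a nuclear long noncoding RNA gene, at 2581, 2423, 2483 and 2545 against 755, 756 and 475 CPM. Tsix was at 65.5, 77.4, 80.6 and 95.2 against 0.352, 0.682 and 0 CPM; it lies antisense to Xist, and since strand was not stated to be used in counting, reads from the 2 genes cannot be told apart. Histone copies are nearly identical, so the level of a single copy is uncertain.

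The 12 lowest by the same rule were Cr2, Pou2af1, Exosc6, Fhdc1, Rhbdl1, Srpk3, Tlr9, Fcer2a, Lmtk3, Zscan25, Kcnh2 and Chst3. Cr2, the complement receptor of B cells (chromosome 1, 195136811 to 195176716), was at 0.177, 0.0717, 0 and 0.152 CPM in the tumor and 42.1, 63.4 and 56 CPM in the spleen samples (-9.01, limma adjusted p = 3.67e-09), Pou2af1, a B cell coactivator gene, at 0, 0.0359, 0.713 and 0.645 against 40.3, 49.4 and 62.6 CPM, and Fcer2a, encoding CD23, at 0.552, 0.869, 0.374 and 0.4 against 47.6, 51.1 and 70.3 CPM. These and Tlr9 moved with the B cell markers, whose sum was 441 to 663 CPM in the spleen samples; their part was not tested. Zscan25, a zinc finger gene, was at 0.291, 0.862, 1.38 and 0.19 against 36.7, 34.5 and 31.4 CPM and Chst3, a chondroitin sulfotransferase gene, at 0.563, 0.842, 0.814 and 1.1 against 45, 57.5 and 57.3 CPM, and both were as different in the second diagonal (-7.33 and -7.02).

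Leaving out any 1 of the 7 samples changed the number of called genes to between 6344 and 6994. The calls rest on 3 spleen mice against 4 tumor mice, and spleen and tumor samples cannot be separated from how each tissue was digested and sorted.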

How the data were processed

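RNA was sequenced from sorted Tregs in 28 libraries, 2 for each of 14 samples. The deposited values are log2 CPM in the form of limma's voom transformation (0.5 added to each count), read from the values themselves: 451 to 1322 genes per library share its lowest value. The submitters' processing notes list bcl2fastq 2.19, kallisto, limma and the build mm10, with no order or settings. How transcripts were summed to genes, the scaling and the use of strand were not given in the sources used here. Inverting the formula gave estimated counts, of which 46.6% to 51.2% per library were whole within 0.01; kallisto divides reads among similar transcripts.

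The 2 libraries of a mouse and gate differed by about sampling noise (median chi-square 0.496 to 0.573, where sampling alone gives 0.455, against 1.4 to 5.76 between mice of a group) and were averaged. limma 3.58.1 (R 4.3.3) was fitted to the log2 CPM of all 14 samples with 1 term per group, empirical Bayes moderation with a trend and no block, on 12519 of 13103 genes (3 or more samples with 0.379 CPM or more, and 15 or more estimated counts in total). Adjusted p-values are Benjamini-Hochberg over all tested genes, called under 0.05. Fold changes are on the scale of log2 CPM with 0.5 added to each count, and this constant draws those of low genes toward 0. They are differences of mean log2 values. For genes at or near 0 in some samples they can therefore exceed the ratio of mean CPM, as for Exosc6 (-7.83, with means 41.4-fold apart). In simulated data, 73 of 100 genes changed by 1 on the log2 scale and 99 of 100 changed by 2 were called, and 10 of 12319 unchanged genes. Only these few genes were changed, all at 10 CPM or more, whereas 57.7% of genes were called in the data. The simulated shares therefore cannot be carried over to the data.

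The gene lists (22 of T cells, 12 of other cell types and 1 of T cell identity, 446 genes, 393 in the table) and the rule for named genes were chosen with earlier results of these data known. The rule took the 12 highest and 12 lowest called genes without overlap and with at least 10 CPM (without markers of other cell types, mitochondrial genes, antigen receptor segments and unnamed gene models), up to 4 of each list by adjusted p, 23 fixed genes, and, with the same CPM limit and exclusions, 8 genes of each of 4 classes by the smaller of their diagonal changes; it gave 135 genes, of which a part is printed; some genes are not reported here. Further members of the lists, among them Cd209a, and Malat1 were named after their values were seen. Alternatives covered scaling, model, filters, the constant added to counts, the samples fitted, the mouse number as a block and each sample left out.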

Additional observations from a re-analysis of the deposited data

Results flagged for a closer look

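The OX40plus minus OX40minus difference was tested between tissues for the 4 genes whose gate differences are given, without pairing the gates by mouse. It was smaller in tumors than in spleens for Tnfrsf4 (difference of the log2 differences -0.69, limma adjusted p = 0.0167) and Ccr8 (-1.48, limma adjusted p = 6.67e-05). For Tcf7 the fall with OX40 was larger in tumors (-3.41, limma adjusted p = 0.000727). For Penk the interaction was not called (limma adjusted p = 0.205).

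Among 150 groups of 4 tumor samples examined for a sample far from the other 3, 6 had a gap to the nearest sample, divided by the range of the log2 CPM, above Dixon's 95% critical value, which chance passes in about 1 of 20 groups. In tumor OX40minus the ratio was 0.972 for Fhdc1, detected in mouse 3 alone, and 0.97 for Exosc6, detected in mouse 2 alone. It was 0.844 for Diaph3 (mouse 2 low), 0.851 for Il2ra (mouse 2 low), 0.876 for Pdk1 (mouse 1 low) and 0.861 for Uqcrb (mouse 3 high).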

How the results depend on the processing

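The number of genes called between tumor OX40minus and spleen OX40plus (7227) was 6965 to 7366 under other scalings, models, filters and constants. It was 6344 to 6994 with each of the 7 samples left out. Same-sign genes (5503) numbered 5342 to 5609 and opposite-sign genes (382) 353 to 420 under these settings, and 4937 to 5609 and 298 to 430 with each of the 14 samples left out. Scaling without ribosomal protein and mitochondrial genes, chosen after seeing the data, moved the median of all genes from -0.05 to -0.21 and gave 2931 genes higher and 4370 lower. Under it 4 rather than 7 core Treg genes were called higher; the cause was not tested.

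With the mouse number as a block, 7036 genes were called, 5354 with the same and 353 with opposite signs. The labels do not say that a number marks the same mouse in tumor and spleen. Same-numbered tumor OX40minus and spleen OX40plus samples did not deviate together (r = 0.0513, -0.00782 and 0.028), so the block was not used in the main fit. The gates of a tissue come from the same mice, and their differences were tested in that fit without pairing. With the block all 8 printed gate differences kept sign and call. The effect of pairing on the comparison of gate differences between tissues was not examined.

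For 143 of the printed genes in the first diagonal, 2271 of 2288 fold changes under the alternatives kept sign and call. Foxp3 (-0.29, not called) ranged from -0.62 to 0.38 over the samples left out, with 0.38 without spleen OX40plus mouse 3, and Il2ra was not called under the added scaling (0.16). Relb, not called, turned to -0.03 under that scaling. In the second diagonal, where neither Lag3 nor Il1rl1 was called, Lag3 turned to -0.08 under the added scaling and without spleen OX40minus mouse 3, and to -0.00 and -0.06 without tumor OX40plus mice 1 and 2 (range -0.08 to 0.21 over the samples left out). Il1rl1 turned to 0.01 without tumor OX40plus mouse 2 (range -0.34 to 0.01). The causes were not tested. P4ha1, Ccr7 and Cd274 there were called lower in tumor under 1 or more other scalings. For Tcf7 the spleen gate difference was called with limma-voom weights (-0.78, adjusted p = 0.00138). Depth limits genes near the level of 3 counts (0.106 to 0.126 CPM); such limits cover counting error only.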
